A study of Mus musculus with 6 samples.

Results

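The nuclear genes for the machinery of oxidative phosphorylation were compared between mouse natural regulatory T cells (nTreg cells) labelled as a T cell knockout of the splicing factor Srsf1 and wild-type (WT) cells. Members were taken by gene symbol: symbols that begin with Ndufa, Ndufb, Ndufc, Ndufs or Ndufv (assembly factors left out), Uqcr or Atp5, or with Cox4 to Cox8 followed by a letter, with Sdha to Sdhd, Cyc1 and Cycs added, and with pseudogenes and genes at 0 in all libraries removed. This gave 84 of the 24982 genes in the count table, of which 36 belong to complex I, 4 to complex II, 9 to complex III, 16 to complex IV and 16 to complex V. Cycs encodes cytochrome c, and the remaining 2, Atp5s and Ndufb4c, carry a matching symbol but encode no known subunit.

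The knockout (KO) mice carried the genotype Srsf1-flox/flox dLck.Cre, in which the distal Lck promoter drives Cre recombinase in T cells, so other cells of the animal keep the gene. WT mice had no such alleles listed. All mice were of the B6.129 strain and 8 to 10 weeks old, and the T cells came from the spleen. The CD4+CD25+CD127lo fraction was sorted and then cultured for 72 h with anti-CD3 at 2 µg/ml, anti-CD28 at 2 µg/ml and recombinant interleukin-2 at 10 ng/ml, in KO and WT alike. There were 3 libraries from KO and 3 from WT cells. One label field names effector CD4 T cells, whereas the titles and the sorting protocol name nTreg cells, and the titles were followed.

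Oxidative phosphorylation is the main route by which mitochondria turn the oxidation of fuels into ATP. Complex I takes electrons from NADH and complex II from succinate, ubiquinone carries them to complex III, and cytochrome c carries them on to complex IV, where oxygen is reduced. Complexes I, III and IV pump protons across the inner membrane, and complex V, the ATP synthase, uses the returning protons to make ATP. Most subunits are encoded in the nucleus and a smaller set in mitochondrial DNA. Regulatory T cells are known to lean on mitochondrial respiration more than effector T cells do, and loss of complex III in Treg cells of mice is known to impair their suppressive function.

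The libraries held 20373649, 13241964 and 10183626 counts for KO replicates 1, 2 and 3, against 23263741 to 27562046 counts for WT. KO replicate 1 stood apart: its log2 values correlated across genes at r = 0.898 to 0.926 with the other libraries, against 0.941 to 0.988 among the other 5, and its mismatch rate was 0.52% of bases against 0.32% to 0.43%. Srsf1 itself was at 438, 812 and 787 CPM (TMM-scaled counts for a library of fixed size) in KO replicates 1, 2 and 3, against 1214, 1230 and 755 CPM in the libraries labelled WT replicates 1, 2 and 3 (log2 fold change -0.65, SE 0.32, edgeR adjusted p = 0.682). The library labelled WT replicate 3 thus lay below KO replicates 2 and 3, and Srsf1 did not pass the test. Counts over the whole gene do not show the deleted part by itself, so the genotypes of all 6 libraries are taken from their labels. Transcripts of the 7 Treg markers examined (Cd4, Foxp3, Il2ra, Ctla4, Ikzf2, Tnfrsf18 and Cd3e) summed to 5404 to 9166 CPM in KO and 5509 to 8611 CPM in WT, and both CD8 markers, Cd8a and Cd8b1, to 38.9 to 60.5 CPM in KO and 193 to 269 CPM in WT. Sums stayed at or below 4.75 CPM for B cell markers, 1.2 CPM for macrophage markers (Csf1r and Lyz2 at 0) and 0.0359 CPM for erythroid markers (Hbb-b1 and Hba-a1 at 0), while natural killer markers reached 5.67 to 20.0 CPM in KO and 6.87 to 18.1 CPM in WT. Each group held 1 library with transcripts of the Y-linked genes Ddx3y, Uty, Kdm5d and Eif2s3y and little Xist, namely KO replicate 2 and WT replicate 2. The part of CD8 T cells in the values below was not tested.

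Across all 6 libraries the oxidative phosphorylation genes showed no common shift between the KO and WT labels. Of the 81 members with enough counts to test, 0 passed edgeR's quasi-likelihood test at an adjusted p of 0.05, where 2 of all 11772 genes did (0.017%). At an unadjusted p under 0.05, 0 members stood out, against 7.51% of all genes (2.76% lower and 4.75% higher in KO), and DESeq2 also called 0 members, against 1.1% of all genes. Fold changes lay above 0 for 41 members and below 0 for 40 (all genes 51.6% above and 48.4% below), and their median on the log2 scale was +0.00, beside +0.02 over all genes. The smallest edgeR adjusted p of any member was 0.682, for Atp5g2. The 3 members with too few counts to test were Cox4i2, Cox6a2 and Ndufb4c. All KO libraries lay below all WT libraries for 5 of 81 members, Atp5f1, Ndufb3, Ndufs1, Ndufs4 and Uqcrc2, where 8.18% of all genes did so, and above them for 0 members, against 7.48% of all genes.

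The balance of the members came from KO libraries that went opposite ways. Relative to the mean of the WT libraries on the log2 scale, the median member stood at +0.28 in KO replicate 1, -0.29 in KO replicate 2 and -0.20 in KO replicate 3. In WT replicates 1 and 2 and the library labelled WT replicate 3 it stood at -0.04, +0.13 and -0.10. KO replicate 1 was thus high, the other KO libraries were low, and the WT libraries lay between. Members were also spread far more widely in KO replicate 1, with an SD across members of 0.871, against 0.326 and 0.338 in KO replicates 2 and 3 and 0.184 to 0.219 in WT. KO replicate 1 was above all other libraries for 46 of 81 members (56.8%, against 36.6% of all genes) and below all others for 12 (14.8%, against 34.8%). Summed over all 84 members, KO libraries held 11604, 8557 and 8779 CPM and WT libraries 9810, 10957 and 9268 CPM, so the means of 9647 ± 1699 CPM in KO and 10012 ± 863 CPM in WT differed by less than the spread between replicates (SD, n = 3 each). Since the RNA came from a mixed population of sorted cells, fewer cells of a type and less RNA per cell cannot be told apart.

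**Figure D1:**
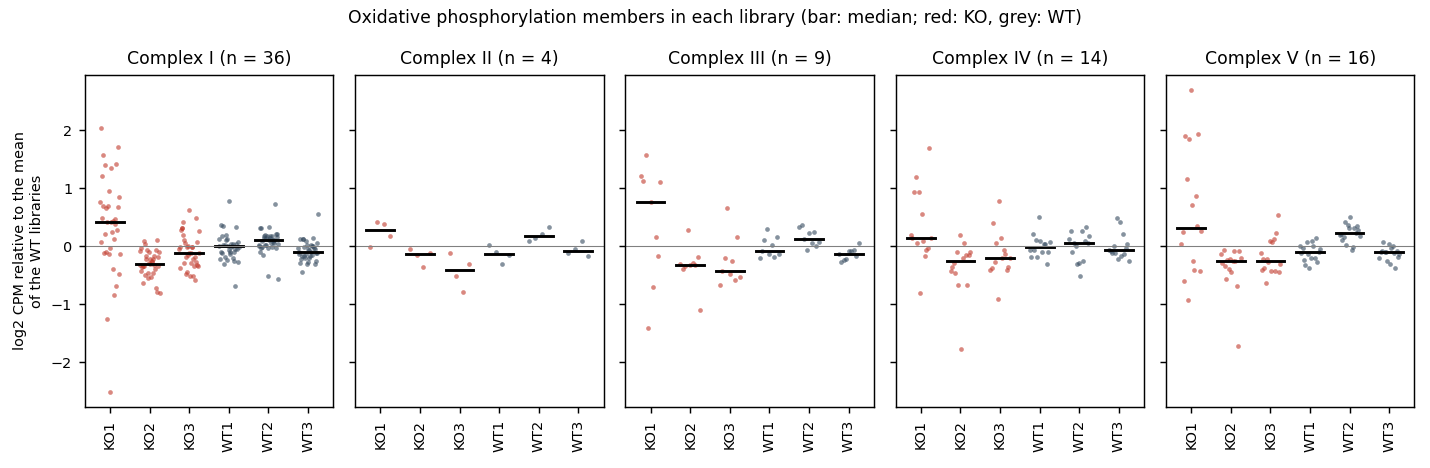
Each point is 1 tested member of a respiratory complex in 1 library, as log2 CPM relative to the mean of the WT libraries (vertical axis), with KO libraries in red, WT libraries in grey and a bar at the median; Cycs and Atp5s belong to no panel. In every complex the median of KO replicate 1 lies above those of KO replicates 2 and 3; for complex III the 3 medians are +0.77, -0.32 and -0.42.

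The deviations of KO replicate 1 moved with the base composition of the gene. Uqcrb and Cox8a have the lowest and the highest share of G and C in the coding sequence among the subunits tested, and the start of each is shown for that reason (first 180 coding bases, GENCODE M21 annotation of GRCm38, mouse chromosomes 13 and 19, G and C in capitals).
Uqcrb: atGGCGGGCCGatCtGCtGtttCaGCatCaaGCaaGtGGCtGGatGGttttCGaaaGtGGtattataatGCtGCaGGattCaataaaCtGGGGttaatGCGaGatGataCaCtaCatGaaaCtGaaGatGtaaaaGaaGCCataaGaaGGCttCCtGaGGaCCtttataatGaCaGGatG
Cox8a: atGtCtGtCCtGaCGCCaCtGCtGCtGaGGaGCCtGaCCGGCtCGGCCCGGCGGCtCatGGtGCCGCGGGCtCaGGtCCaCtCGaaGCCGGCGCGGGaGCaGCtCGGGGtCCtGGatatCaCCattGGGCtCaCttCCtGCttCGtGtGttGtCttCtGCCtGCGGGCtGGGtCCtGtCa
The whole coding sequence has 42.9% G and C in Uqcrb and 65.2% in Cox8a. Uqcrb, a small subunit of complex III, was at 42.3, 137 and 178 CPM in KO and 138, 108 and 96.6 CPM in WT. Cox8a, a small subunit of complex IV, was at 229, 63.4 and 55.1 CPM in KO and 65.3, 73.5 and 72.3 CPM in WT. KO replicate 1 was thus the lowest of 6 libraries for the gene poor in G and C and the highest for the one rich in them, while KO replicates 2 and 3 were among the higher libraries for Uqcrb and the lowest for Cox8a. Neither gene passed the test (Uqcrb log2 fold change +0.06, SE 0.46, edgeR adjusted p = 0.971; Cox8a +0.72, SE 0.51, adjusted p = 0.752).

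Over the 81 tested members, the deviation of KO replicate 1 from the WT mean had a correlation across genes with coding GC content of r = 0.71 and rho = 0.76, a description of genes that share 1 library. Over all 11704 tested genes with a transcript in GENCODE M21, r was also 0.71 (GC content of the whole transcript where no coding part was known). In the other 5 libraries r over the members ran from -0.29 to 0.13 and rho from -0.48 to 0.16, both lowest in KO replicate 2, where rho over all genes was -0.09. In the 27 members with the lowest GC content (42.0% to 50.8%) the median of KO replicate 1 was -0.16, in the middle 27 (51.3% to 54.7%) it was +0.28 and in the highest 27 (55.1% to 65.2%) it was +1.13. All genes tested in the same ranges had medians of -0.67, +0.18 and +0.87 in that library. The members thus climbed with GC content as all genes did, and their median lay above that of all genes in each range. Members and all genes were not matched for GC content within a range, so the sizes of these gaps cannot be compared. KO replicates 2 and 3 ran the other way, and so did WT replicate 1. In KO replicates 2 and 3 the medians of the members were -0.17 and -0.14 in the low range, -0.30 and -0.18 in the middle and -0.35 and -0.29 in the high range. In WT replicate 1 they were +0.02, +0.00 and -0.11. Its rho over all genes was -0.35, against -0.10 in KO replicate 3, so a falling trend was not confined to KO libraries. The members are short genes, with a median transcript of 732 bases against 2760 over all genes, and their median coding GC content of 53.2% was close to the 52.6% of all genes. The part that composition played in the difference between groups was not tested. With each library's trend on GC content and length taken out, the median of the members was -0.07 on the log2 scale, with 51 of 81 below 0 (all genes 50.1%) and 0 members called.

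**Figure D2:**
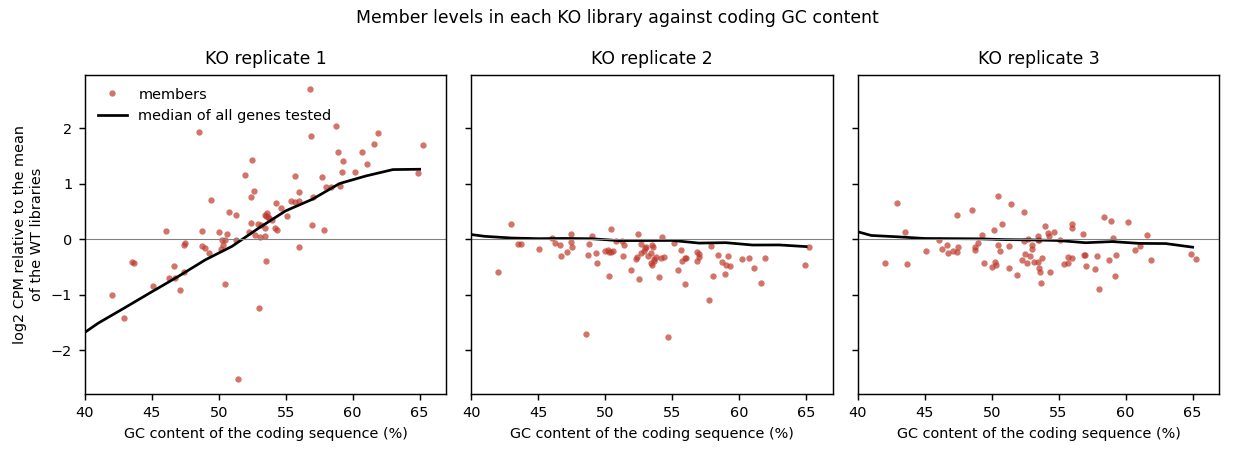
Log2 CPM relative to the WT mean (vertical axis) against the GC content of the coding sequence in percent (horizontal axis), for the 81 tested members in each KO library, with the median of all genes tested as a line. In KO replicate 1 the members climb with GC content, as the line of all genes does, with most members above that line at low GC content, and in KO replicates 2 and 3 most members lie below a nearly level line.

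Without KO replicate 1, the members tilted towards lower values in KO. Of 81 members, 71 (87.7%) had a fold change below 0, where 53.6% of all genes did, and the median was -0.25 on the log2 scale, beside -0.03 for all genes. Both remaining KO libraries lay below all WT libraries for 40 members (49.4%, against 16.4% of all genes) and above all of them for 0 members (13.4% of all genes). At an unadjusted p under 0.05, 11 members were lower and 1, Uqcrb, was higher, against 5.25% and 5.17% of all genes. Among the 11 were Ndufb11 and Ndufs3 of complex I, Sdhc of complex II, Uqcrc1, Uqcrfs1 and Uqcrq of complex III, Cox4i1, Cox6a1 and Cox7c of complex IV and Atp5e of complex V. Still 0 of the 81 passed edgeR's adjusted threshold, which 3 of 11990 genes passed (0.025%), and the smallest adjusted p was 0.296, for Uqcrq. With the library labelled WT replicate 3 also left out, 71 of 81 were below 0 (all genes 49.7%), the median was -0.29 and 0 members passed, where 80 of 11549 genes did (0.693%). Weighting each library by its estimated quality in limma's voom gave KO replicate 1 a weight of 0.0995 and the library labelled WT replicate 3 a weight of 0.51, against 1.84 to 2.66 for the others, so that fit came close to leaving KO replicate 1 out and is no separate support. It gave a median of -0.27, with 72 of 81 members below 0 (all genes 53.3%) and 0 called, against 1.95% of all genes. Within the libraries bearing Y-linked transcripts, the median member was at -0.29 in KO replicate 2 and +0.13 in WT replicate 2. Among those without them, it was at -0.20 in KO replicate 3, against -0.04 in WT replicate 1 and -0.10 in the library labelled WT replicate 3, with KO replicate 1 at +0.28.

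**Figure D3:**
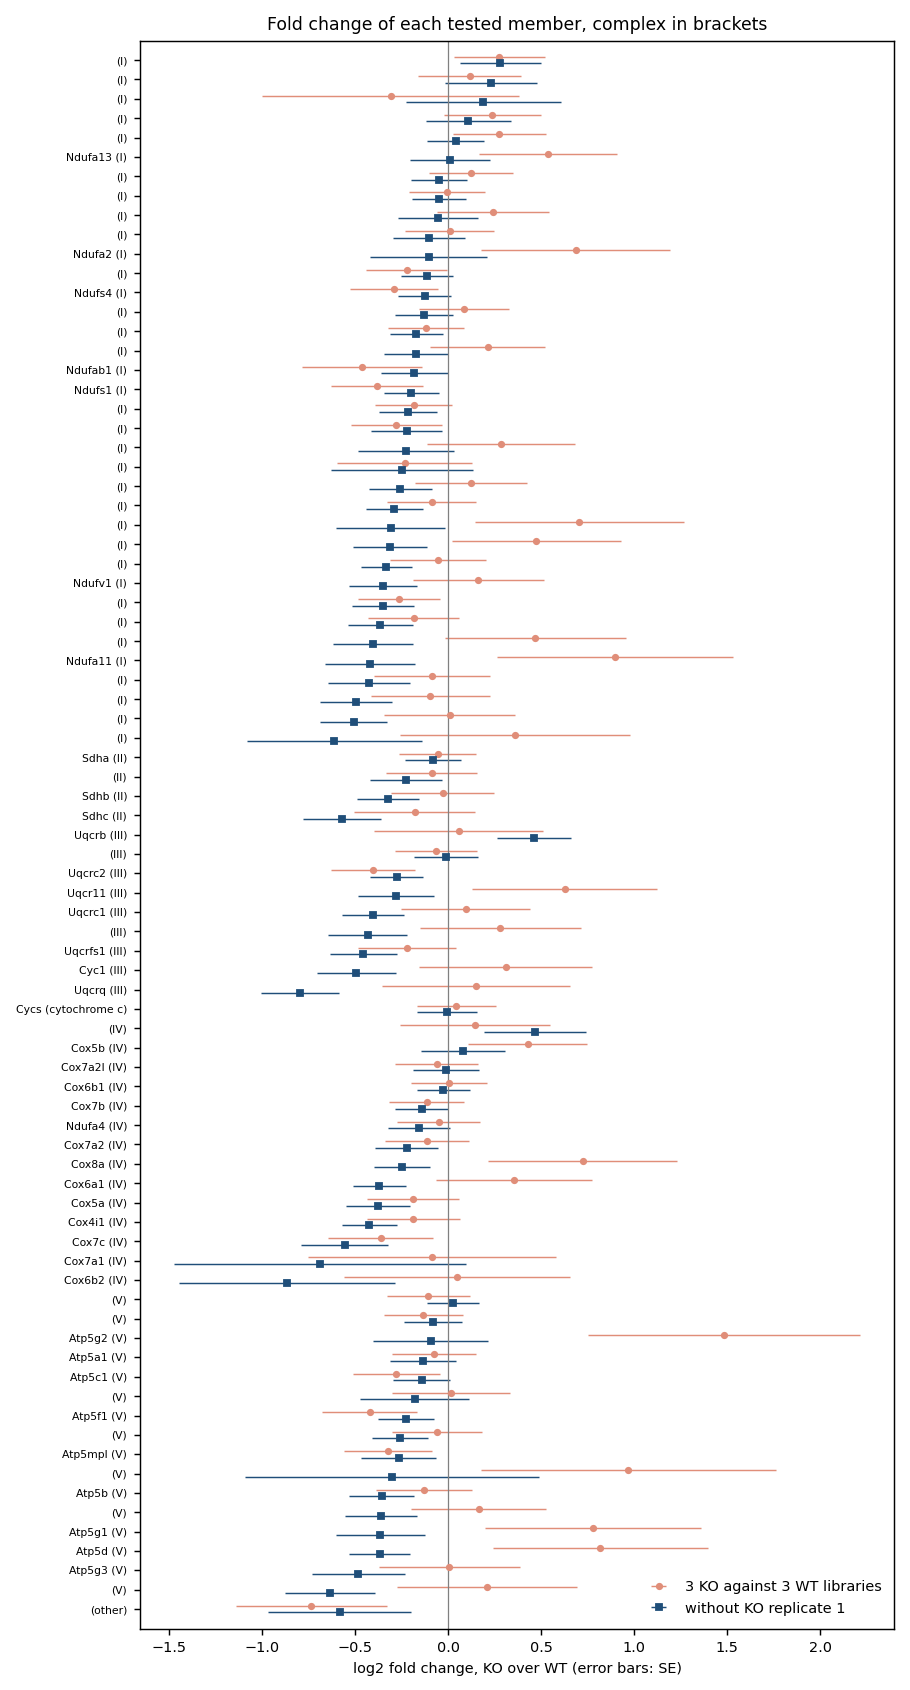
Log2 fold change of KO over WT with its SE (horizontal axis) for each of the 81 tested members, grouped by complex (in brackets, with names for some members), with all 6 libraries (circles) and without KO replicate 1 (squares). Most squares lie left of 0, 71 of 81, whereas the circles fall on either side, 41 above and 40 below.

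Complex I, the entry point for electrons from NADH, had 20 of its 36 members above 0 and 16 below, with a median of +0.05. Ndufs1, the large core subunit that holds iron-sulphur clusters, was at 98.7, 156 and 152 CPM in KO and 181, 191 and 159 CPM in WT. Every KO library lay below every WT library, though the lowest WT value, from the library labelled WT replicate 3, was close to KO replicate 2 (log2 fold change -0.38, SE 0.25, edgeR adjusted p = 0.735, and -0.20 without KO replicate 1). Ndufs4, an accessory subunit whose loss in mice is known to cause a disease like Leigh syndrome, was at 40.2, 61.8 and 57.4 CPM in KO and 62.9, 67.9 and 64.0 CPM in WT, with the groups again apart but KO replicate 2 close to WT replicate 1 (-0.29, SE 0.24, edgeR adjusted p = 0.761). Ndufb3, an accessory subunit of the membrane arm, was at 41.3, 37.0 and 41.0 CPM in KO and 45.5, 44.2 and 46.1 CPM in WT. Ndufab1, the mitochondrial acyl carrier protein, was at 19.3, 41.1 and 40.6 CPM in KO and 52.4, 46.7 and 39.8 CPM in WT, and only KO replicate 1 was far below the rest (-0.46, SE 0.32, edgeR adjusted p = 0.751, and -0.18 without it).

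The complex I members above WT with the smallest p owed their height to KO replicate 1. Ndufa11, an accessory subunit of the membrane arm, was at 53.6, 9.73 and 10.0 CPM in KO and 11.3, 16.2 and 12.2 CPM in WT, so KO replicate 1 was the highest library and the other KO libraries the lowest. Its log2 fold change was +0.90 (SE 0.64, edgeR adjusted p = 0.753) with all libraries and -0.42 without KO replicate 1. Ndufa13, known also as GRIM-19, stood at +0.53 (SE 0.37) and +0.01 without KO replicate 1, and the accessory subunit Ndufa2 at +0.69 (SE 0.51) and -0.10. Ndufv1, which binds NADH, was at 118, 52.0 and 52.0 CPM in KO and 54.1, 75.9 and 68.6 CPM in WT (+0.16, SE 0.35, edgeR adjusted p = 0.893, and -0.35 without KO replicate 1). Without that library 30 of 36 members of the complex were below 0, with a median of -0.21.

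Complex II links the respiratory chain to the citric acid cycle, and its 4 subunits were all below 0, with a median of -0.07, or -0.28 without KO replicate 1. Sdha, the catalytic subunit that oxidises succinate, was at 306, 300 and 284 CPM in KO and 313, 329 and 284 CPM in WT, so that the groups overlapped and KO replicate 1 did not stand out (log2 fold change -0.06, SE 0.21, edgeR adjusted p = 0.936). Sdhb, the iron-sulphur subunit, was at 165, 111 and 86.4 CPM in KO and 115, 136 and 120 CPM in WT. Sdhc, a membrane anchor, was at 101, 60.1 and 44.5 CPM in KO and 62.4, 89.0 and 81.7 CPM in WT. In both, KO replicate 1 was the highest of the 6 libraries and the other KO libraries the lowest (Sdhb -0.03, SE 0.28; Sdhc -0.18, SE 0.32; neither passed). Without KO replicate 1, Sdhb stood at -0.32 and Sdhc at -0.57 (SE 0.21, edgeR adjusted p = 0.433).

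Complex III, which passes electrons from ubiquinol to cytochrome c, had 6 members above 0 and 3 below, with a median of +0.09. Uqcrq, a small membrane subunit, was at 111, 23.8 and 35.3 CPM in KO and 46.7, 54.0 and 53.0 CPM in WT. Its log2 fold change was +0.15 (SE 0.51, edgeR adjusted p = 0.930) with all libraries and -0.80 (SE 0.21, adjusted p = 0.296) without KO replicate 1. Uqcrc2, a core protein that carries no redox centre, was at 166, 221 and 228 CPM in KO and 275, 282 and 257 CPM in WT, with no overlap between the groups (-0.41, SE 0.23, edgeR adjusted p = 0.712). Its partner Uqcrc1 was at 270, 127 and 114 CPM in KO and 144, 185 and 150 CPM in WT (+0.09, SE 0.35, edgeR adjusted p = 0.936, and -0.40 without KO replicate 1). The coding GC content of the 2 core protein genes was 46.7% for Uqcrc2 and 57.0% for Uqcrc1, and KO replicate 1 was the lowest library for Uqcrc2 and the highest for Uqcrc1. Of the redox subunits, Uqcrfs1, the Rieske iron-sulphur protein, stood at -0.22 (SE 0.26) and -0.46 without KO replicate 1, and Cyc1, cytochrome c1, at +0.31 (SE 0.46) and -0.49. Uqcr11, a small subunit, was at 60.3, 15.9 and 17.6 CPM in KO and 21.7, 22.1 and 17.2 CPM in WT (+0.63, SE 0.50, edgeR adjusted p = 0.757, and -0.28 without KO replicate 1). Without KO replicate 1, both remaining KO libraries lay below all WT libraries for 6 of the 9 members (66.7%, against 16.4% of all genes). In that comparison 8 members were below 0, with a median of -0.40. The exception, Uqcrb, stood at +0.46 (SE 0.20, edgeR adjusted p = 0.479).

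Cytochrome c, the mobile carrier between complexes III and IV, showed no separation between the groups in the count table. Its gene Cycs was at 72.1, 66.3 and 64.3 CPM in KO and 68.4, 71.5 and 56.7 CPM in WT, all 6 libraries within a narrow range (log2 fold change +0.04, SE 0.21, edgeR adjusted p = 0.951). In the other deposited table it was at 53.8, 110 and 122 FPKM in KO and 142, 126 and 108 FPKM in WT, with KO replicate 1 far below the rest and a difference of -0.47 in log2(FPKM + 1), which did not pass limma's test.

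**Figure D4:**
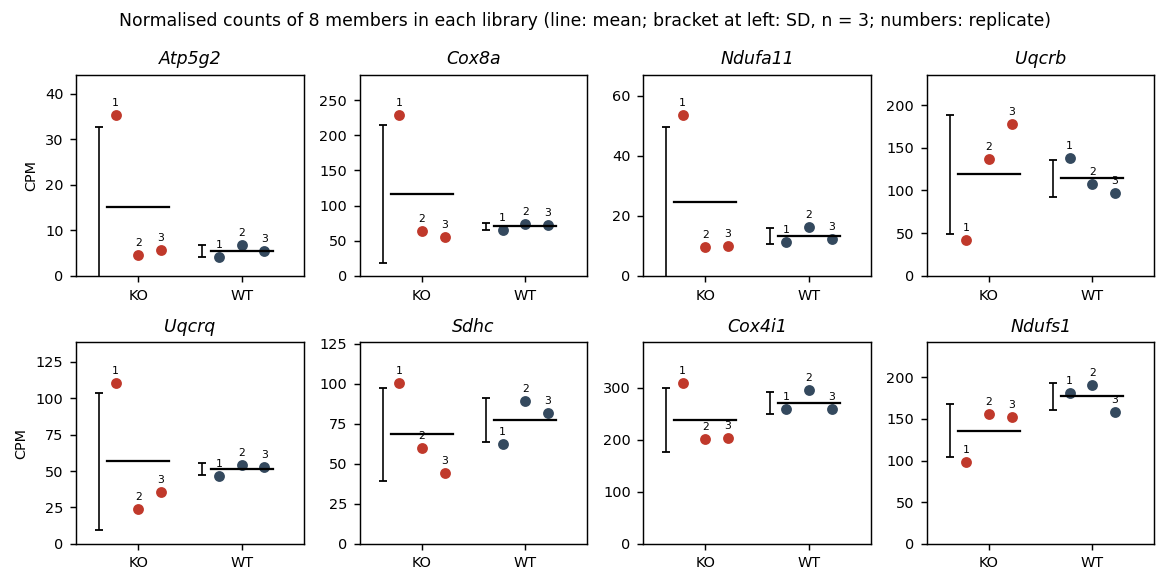
CPM (vertical axis, from 0) of 8 members in each KO library (red) and each WT library (dark grey), with replicate numbers, the group mean as a line and its SD as a bracket (n = 3). KO replicate 1 is the highest library for Atp5g2, Cox8a, Ndufa11, Uqcrq, Sdhc and Cox4i1 and the lowest for Uqcrb and Ndufs1.

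Complex IV, cytochrome c oxidase, has subunits that come in tissue-specific forms, and the cells used the widespread form of each. On the FPKM scale, which divides by transcript length, Cox4i1 was at 371 ± 112 in KO and 415 ± 42.3 in WT, against 0.186 ± 0.208 and 0.106 ± 0.183 for Cox4i2, the form known from lung (mean ± SD, n = 3 each). Cox6a1 was at 245 ± 190 in KO and 180 ± 15.2 in WT, against 0.113 ± 0.196 and 0.655 ± 0.440 for the muscle form Cox6a2, and Cox6b1 at 497 ± 58.6 in KO and 452 ± 43.6 in WT, against 2.71 ± 2.54 and 2.72 ± 0.907 for the testis form Cox6b2. Cox7a2 stood at 154 ± 33.7 in KO and 159 ± 25.9 in WT, and its relative Cox7a2l, known for its part in supercomplexes, at 121 ± 17.1 and 130 ± 26.3. The muscle form Cox7a1 was at 2.39 ± 2.13 in KO and 2.62 ± 0.632 in WT. Cox8b, Cox8c, Cox7b2 and Ndufa4l2 were listed at 0 in all libraries of both tables, while their relatives Cox8a, Cox7b and Ndufa4 were at 293, 144 and 259 FPKM in KO and 176, 150 and 260 FPKM in WT. Rows at 0 can be missing values, since the ribosomal protein gene Rpl26 was listed at 0 counts too.

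In each set the order of the forms was the same in the KO and WT means. Of the 14 tested members of the complex, 6 were above 0 and 8 below, with a median of -0.06. Cox4i1 was at 310, 201 and 203 CPM in KO and 259, 295 and 259 CPM in WT, with KO replicate 1 highest and the other KO libraries lowest (log2 fold change -0.19, SE 0.25, edgeR adjusted p = 0.840, and -0.42 without KO replicate 1). Cox5a stood at -0.19 (SE 0.25), Cox6b1 at +0.00 (SE 0.21), Cox7a2 at -0.11 (SE 0.23), Cox7a2l at -0.06 (SE 0.22), Cox7b at -0.12 (SE 0.20) and Ndufa4, first described as a complex I subunit, at -0.05 (SE 0.22). Without KO replicate 1, Cox5a stood at -0.38, Cox7a2 at -0.22 and Ndufa4 at -0.16. Cox8a had the smallest p among members above 0 and Cox7c among those below, the last at 36.2, 23.1 and 27.8 CPM in KO and 29.6, 46.4 and 36.0 CPM in WT (-0.36, SE 0.28, edgeR adjusted p = 0.754). Cox5b, a zinc-binding subunit, stood at +0.43 (SE 0.32) and Cox6a1 at +0.35 (SE 0.42), or +0.08 and -0.37 without KO replicate 1, and Cox8a turned to -0.25. Without that library 12 of 14 were below 0, with a median of -0.23.

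Complex V, the ATP synthase, lets protons back through a rotor that drives ATP formation. Atp5b, the catalytic beta subunit, was at 1865, 1281 and 1187 CPM in KO and 1456, 1817 and 1468 CPM in WT, with KO replicate 1 highest and the other KO libraries lowest (log2 fold change -0.13, SE 0.26, edgeR adjusted p = 0.887, and -0.36 without KO replicate 1). Atp5a1, the alpha subunit, was at 1262, 1114 and 1135 CPM in KO and 1229, 1408 and 1068 CPM in WT, and the groups overlapped (-0.08, SE 0.22, edgeR adjusted p = 0.920). On the FPKM scale Atp5b averaged 652 in KO and 683 in WT, and Atp5a1 394 and 401. Atp5f1, the b subunit of the peripheral stalk, was at 235, 376 and 383 CPM in KO and 465, 452 and 415 CPM in WT, with no overlap (-0.42, SE 0.26, edgeR adjusted p = 0.724, and -0.23 without KO replicate 1). Of the central stalk, the gamma subunit Atp5c1 stood at -0.28 (SE 0.23) and the delta subunit Atp5d at +0.82 (SE 0.58), or -0.14 and -0.37 without KO replicate 1. Atp5mpl, a small membrane subunit, stood at -0.32 (SE 0.24). Atp5s, which is no subunit of the enzyme, was at 2.42, 3.24 and 3.61 CPM in KO and 4.52, 3.53 and 7.32 CPM in WT. Over the complex 8 members were above 0 and 8 below, with a median of -0.03, and without KO replicate 1 15 of 16 were below 0, with a median of -0.26.

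Atp5g1, Atp5g2 and Atp5g3 encode the same mature c subunit of the rotor ring and differ in the peptide that directs it to mitochondria. Atp5g2 was at 35.3, 4.6 and 5.72 CPM in KO and 4.16, 6.75 and 5.56 CPM in WT. Only KO replicate 1 stood apart, and the log2 fold change of +1.48 (SE 0.73, edgeR adjusted p = 0.682), the highest of any member, was -0.09 without it. Atp5g1 was at 76.9, 16.1 and 17.4 CPM in KO and 19.3, 27.5 and 17.8 CPM in WT (+0.78, SE 0.58, edgeR adjusted p = 0.754, and -0.36 without KO replicate 1). Atp5g3 was at 320, 145 and 145 CPM in KO and 171, 278 and 158 CPM in WT (+0.01, SE 0.38, edgeR adjusted p = 0.995, and -0.48). In all 3 genes KO replicate 1 was the highest library. On the FPKM scale the means were 97.2 in KO and 53.1 in WT for Atp5g1, 230 and 144 for Atp5g2, and 304 and 281 for Atp5g3.

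The 2 deposited tables gave different levels for some members, both with and without near-identical copies elsewhere. Over the 81 tested members, the WT mean in FPKM divided by the WT mean in CPM per kilobase of transcript had a median of 1.07, with quartiles of 0.899 and 1.47. For Atp5l, a membrane subunit of the ATP synthase, the quotient was 209: its counts were 54, 2 and 9 in KO and 11, 20 and 16 in WT, while its FPKM ran from 204 to 347 in KO and from 199 to 290 in WT. Of the 75-base windows of its transcript, 76.0% also occur in a transcript of another gene. For Atp5g2 the quotient was 11.6 and all windows occurred elsewhere, and for Ndufb4, a complex I subunit with 35.2% of windows shared, it was 5.31. Cycs had a quotient of 5.98 with 26.1% of windows shared. Shared windows and the quotient did not always go together: Atp5h, with 53.9% shared, was at 1.05, and Ndufv3, with 0% shared, at 3.20. Low quotients were found for Ndufa11 (0.159), Uqcrq (0.224) and Ndufs5 (0.242), with 1.06%, 0% and 32.4% of windows shared. Ndufs5, a complex I subunit, was listed at 90.5 FPKM in KO replicate 1 and at no more than 3.95 FPKM in any other library. Levels of these members are therefore uncertain by up to the size of the quotient, and 37 of the 81 share at least 1 window with another gene. The length in the quotient was that of 1 GENCODE M21 transcript per gene, which need not be the one behind the FPKM values. How much of a quotient came from that choice of length was not tested. Exons of another gene overlap 26 members on the opposite strand, Ndufs1, Ndufa11, Uqcrb, Uqcrc2, Cox4i1, Cox5a, Atp5d and Atp5f1 among them, and, with the strand setting of the counting not given, the reads of such pairs cannot be told apart.

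**Figure D5:**
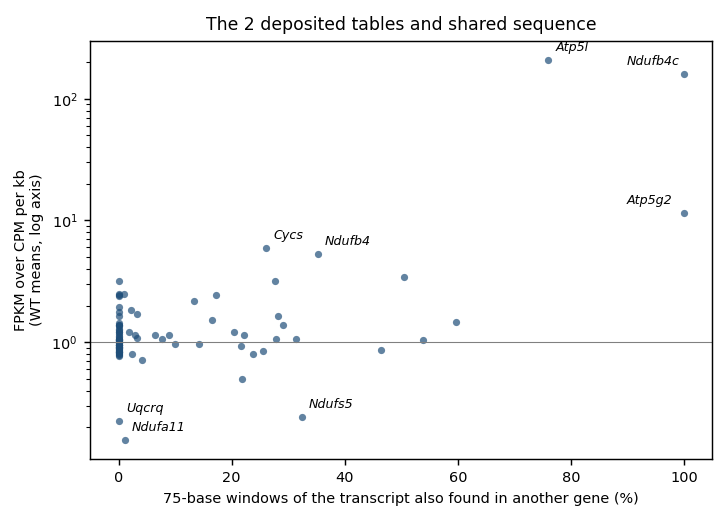
For each member, the WT mean in FPKM divided by the WT mean in CPM per kilobase (vertical log axis) against the percent of 75-base windows of its transcript found in another gene (horizontal axis). Most members lie near 1, and Atp5l, Ndufb4c and Atp5g2, with 76.0% or more of windows shared, lie highest.

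The factors that build and regulate the complexes were examined beside the members, and edgeR called 0 genes of any list. Subunits encoded in mitochondrial DNA were not analysed here. Beside the counts of each list, 48.4% of all genes were below 0, or 53.6% without KO replicate 1. Among 42 tested assembly factors of the respiratory complexes, 16 were above 0 and 26 below (median -0.08), and without KO replicate 1 31 were below (median -0.20). Sco1, a copper chaperone for complex IV, was at 28.9, 35.1 and 49.4 CPM in KO and 63.9, 56.3 and 66.1 CPM in WT (log2 fold change -0.72, SE 0.26, edgeR adjusted p = 0.621). Ndufaf5, an assembly factor of complex I, was at 11.1, 11.2 and 8.82 CPM in KO and 15.5, 17.3 and 16.8 CPM in WT (-0.67, SE 0.27, edgeR adjusted p = 0.651). Both were below WT in every KO library, as 8.18% of all genes were, and stayed there without KO replicate 1, at -0.56 and -0.72. On the other side, the complex III factor Uqcc3 stood at +0.81 and the complex IV factor Cox14 at +0.69, or +0.28 and -0.20 without KO replicate 1. Uqcc3 was above WT in every KO library, as 7.48% of all genes were, whereas the groups overlapped for Cox14.

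Enzymes that supply the chain with electrons did not pass either. Of 18 genes of pyruvate dehydrogenase and the citric acid cycle, 4 were above 0 and 14 below (median -0.26), and without KO replicate 1 16 were below (median -0.21). Dlat, the acetyltransferase of pyruvate dehydrogenase, was at 77.3, 105 and 91.3 CPM in KO and 140, 136 and 116 CPM in WT, with no overlap (log2 fold change -0.51, SE 0.22, edgeR adjusted p = 0.659). Suclg2, Pdha1 and Fh1 also lay below WT in every KO library, as 8.18% of all genes did. Suclg2 stood at -0.43 and Mdh2 at +0.26, or -0.22 and -0.20 without KO replicate 1. Of 7 other enzymes that pass electrons to ubiquinone, 4 were above 0 and 3 below (median +0.01), among them Chdh at +1.15, Prodh at +0.30, Gpd2 at -0.47 and Etfa at -0.36. Without KO replicate 1, 4 of the 7 were below 0 (median -0.17), with these genes at +0.49, +0.20, -0.26 and -0.24. Of 10 genes of mitochondrial oxidant defence, 7 were above 0 and 3 below (median +0.07), with Gpx1 at +0.77, Txn2 at +0.53, Prdx3 at -0.40 and Sod2 at -0.18. Without KO replicate 1 the direction of that list turned, with 6 of 10 below 0 (median -0.15), and Gpx1 and Txn2 stood at +0.32 and +0.20.

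A further list held carriers and pores that exchange metabolites between mitochondria and cytosol and Atpif1, the inhibitor of the ATP synthase. Of its 8 tested genes, 1 was above 0 and 7 below (median -0.24), and without KO replicate 1 6 were below (median -0.27). Vdac3, a pore of the outer membrane, was at 47.3, 69.9 and 59.8 CPM in KO and 85.1, 101 and 84.3 CPM in WT (log2 fold change -0.61, SE 0.23, edgeR adjusted p = 0.638). Vdac1 was at 360, 368 and 404 CPM in KO and 457, 479 and 563 CPM in WT (-0.40, SE 0.22, edgeR adjusted p = 0.706). All KO libraries lay below all WT libraries for both pores, KO replicate 1 included, and for the related Vdac2, where 8.18% of all genes did so. Ucp2, a mitochondrial carrier, was the 1 above 0, at +0.58 with all libraries and +0.07 without KO replicate 1.

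Regulators of mitochondrial biogenesis were the last list, with 8 of 21 above 0 and 13 below (median -0.12), and 13 below without KO replicate 1 as well (median -0.02). Polrmt, the mitochondrial RNA polymerase, stood at +0.96 and the coactivator Pprc1 at +0.44, or +0.04 and -0.01 without KO replicate 1, and the ribosomal RNA methyltransferase Tfb1m at -0.44 and the protease Lonp1 at -0.47, or -0.33 and -0.68 without KO replicate 1. The transcription factor NRF1 is known to bind promoters of many respiratory genes. Its gene Nrf1 was at 79.7, 68.8 and 56.5 CPM in KO and 58.8, 65.1 and 44.7 CPM in WT, with overlap between the groups (log2 fold change +0.28, SE 0.25, edgeR adjusted p = 0.770). The core of its consensus, GCATGCGC, was searched on both strands from 250 bases before to 50 bases after the start in RefSeq promoters of GRCm38.p6. It occurred in 11 of 66 members with a promoter entry (16.7%), against 3.05% of all 27025 genes with such an entry. The members' promoters were also richer in G and C, with a median of 57.7% against 52.7% over all genes with an entry, and the part of this in the share of a motif rich in G and C was not tested. The 11 members with the motif were Atp5g2, Atp5k, Atp5l, Cox6a1, Cycs, Ndufa11, Ndufa6, Ndufa8, Sdhb, Uqcr11 and Uqcrc1. Shown are the 250 bases before the start of Atp5g2 (chr15:102671048-102671297, minus strand) and Ndufa11 (chr17:56717512-56717761, plus strand), the members highest over WT in KO replicate 1, with the matches in capitals (overlapping matches on both strands).
Atp5g2: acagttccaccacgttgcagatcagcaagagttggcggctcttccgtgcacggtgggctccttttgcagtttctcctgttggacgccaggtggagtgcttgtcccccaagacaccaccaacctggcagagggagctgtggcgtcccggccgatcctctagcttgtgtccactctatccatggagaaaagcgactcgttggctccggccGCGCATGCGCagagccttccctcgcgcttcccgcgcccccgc
Ndufa11: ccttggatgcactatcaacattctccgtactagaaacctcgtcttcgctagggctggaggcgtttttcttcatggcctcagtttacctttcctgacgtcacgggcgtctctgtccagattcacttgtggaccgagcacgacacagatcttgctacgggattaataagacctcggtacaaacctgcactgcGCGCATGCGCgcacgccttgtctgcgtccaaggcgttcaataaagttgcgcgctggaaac
In KO replicate 1 these genes were at +2.70 and +2.03 (log2, WT mean at 0), against -0.22 and +0.09 for Atp5g2 and -0.42 and -0.38 for Ndufa11 in KO replicates 2 and 3. The remaining members with a match ran from +0.15 for Cycs to +1.94 for Atp5l, which held 54 counts, in KO replicate 1. Members with an entry but no match were at +1.86 for Atp5g1, +1.71 for Ndufs7 and +1.70 for Cox8a, but at -0.69 for Ndufs4. With or without a match, 7, 23 and 26 of 27 tested members in the low, middle and high GC range were above 0 in that library. A link between the match and the level in that library was not tested. Other motifs were looked for in the same way: the YY1 motif AAGATGGC was in 9 members (13.6%, all genes with an entry 3.19%), the ETS motif CCGGAAGT in 5 (7.58%, all genes with an entry 4.31%), the cAMP response element TGACGTCA in 5 (all genes with an entry 2.03%) and the E-box CACGTG in 5 (all genes with an entry 8.09%). A match in a window is a description of its letters and shows no binding.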

How the data were processed

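RNA from 6 libraries of stimulated nTreg cells, 3 KO and 3 WT, was read as 75-base single ends from a stranded mRNA kit and run through the VIPER pipeline, per the labels' design text. The aligner was STAR 2.4.2a, as the report's own header shows, and the submitters' processing notes name mm9 as the build. How reads were assigned to genes, with which annotation and strand, is not given in the sources used here. One deposited table holds raw whole-number counts for each symbol, and another, also by the authors, holds FPKM values, which are scaled by the authors for depth and length; that unit was read from the file's values. An alignment report deposited by the authors was used for mismatch rates. Symbols that stand as dates (26 entries, 0.271% of counts) stayed in the library sizes and are not named.

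The test was edgeR's quasi-likelihood F test (version 4.0.16, R 4.3.3) on counts with TMM scaling, after filterByExpr with its minimum of 10 counts, fitted on the whole table, with Benjamini-Hochberg adjustment over all 11772 genes tested and a threshold of 0.05. Log2 fold changes are KO over WT, standard errors come from the F statistic, and CPM are TMM-scaled. Levels relative to WT are log2 of CPM with 0.05 CPM added. Correlations between libraries used log2 CPM with a prior count of 1. GC content and length came from GENCODE M21, for the transcript with the longest coding sequence. Genes without a coding sequence there took the GC content of the whole transcript. Library totals of 10183626 to 27562046 make 3 counts equal to 0.109 to 0.295 CPM. The method was tested on simulated counts. These held no library with a shift linked to GC content, so that test does not cover the behaviour of KO replicate 1.

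The members and gene lists were chosen with earlier results of these data known. Genes were named by these rules: catalytic, core or carrier members of known role; alternative forms of a subunit; the 3 members of complexes I and V, 2 of III and IV and 1 of II with the smallest p in each direction; members past the threshold; and the 2 genes of each list with the smallest p in each direction. Some results of single genes are not reported here. Other genes were named after their values were seen, among them Uqcrb, Uqcrq, Ndufb3, Nrf1, Atp5s and those with unlike values in both tables.

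Replicates were taken from the titles. The labels give 3 mice per genotype, so replicates are taken as separate animals, and no pair of libraries in a group agreed within sampling noise (chi-square per degree of freedom 20.6 to 230). The labels do not state that replicate numbers mark pairs, and whether they do was left undecided. Alternatives were other scaling factors, other filters, DESeq2 1.42.0, limma 3.58.1 with voom or quality weights, the replicate number as a block, libraries left out, a correction for GC content and length, and limma on FPKM after log2 with 1 or 0.1 added.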

Additional observations from a re-analysis of the deposited data

How the results depend on the processing

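No member passed the threshold under any of the 20 alternatives run, and neither did any of the 62 named genes examined singly. The count over all genes was 2 and became 6 with no filter on low counts, 129 with DESeq2, 1 with voom, 229 with quality weights, 80 with 2 against 2 libraries (left out: KO replicate 1, and also the library labelled WT replicate 3), 0 with log2(FPKM + 1) or log2(FPKM + 0.1), and 0 to 3 with 1 library left out. The median of the members on the log2 scale was +0.00, ranged from -0.25 to +0.055 with 1 library left out (lowest without KO replicate 1), and became -0.27 with quality weights and -0.29 with 2 against 2 libraries. Under the other alternatives it stayed within the spread between library medians.

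The replicate number as a block gave a median of -0.06, 0 members and 1 gene called. Deviations of libraries with the same number correlated at -0.348, 0.15 and 0.141. Those of KO and WT libraries with unlike numbers ran from -0.364 to 0.311, so these values do not settle whether the numbers mark pairs. Under that replicate block the sign turned for Uqcrc1 -0.0161, Cox6b2 -0.14, Atp5g3 -0.0554, Uqcrb -0.13 and Uqcrq -0.19.

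Signs of single genes, none of them called, turned as follows, and the cause was not tested. Quality weights turned 19 of 62: Ndufv1 -0.24, Uqcrc1 -0.36, Cyc1 -0.42, Cycs -0.0574, Cox6a1 -0.33, Cox6b1 -0.0726, Cox6b2 -0.52, Cox7a2l +0.0588, Cox8a -0.16, Atp5g1 -0.32, Atp5g3 -0.46, Ndufa11 -0.32, Ndufa2 -0.21, Atp5d -0.24, Cox5b -0.0274, Uqcr11 -0.30, Pprc1 -0.0323, Mdh2 -0.15 and Uqcrq -0.76. Using 2 against 2 libraries turned 20: Ndufv1 -0.30, Uqcrc1 -0.43, Cyc1 -0.54, Cycs -0.0787, Cox6a1 -0.35, Cox6b1 -0.0555, Cox6b2 -0.53, Cox7a2l +0.13, Cox8a -0.21, Atp5g1 -0.46, Atp5g2 -0.0694, Atp5g3 -0.61, Ndufa11 -0.45, Ndufa2 -0.19, Atp5d -0.31, Uqcr11 -0.37, Pprc1 -0.0813, Mdh2 -0.19, Cox14 -0.0601 and Uqcrq -0.75. The correction for GC content and length turned 11: Ndufv1 -0.0893, Uqcrc1 -0.20, Cyc1 -0.16, Cox6a1 -0.17, Cox6b1 -0.0742, Cox6b2 -0.42, Cox7a2l +0.0383, Cox7b +0.0658, Ndufa4 +0.0891, Atp5mpl +0.0557 and Uqcrq -0.34. Upper quartile scaling turned Sdhb +0.0209, total counts turned Sdhb +0.0361 and Ndufa4 +0.0092, DESeq2 size factors turned Cox6b1 -0.0012 and Atp5g3 -0.0061, and the DESeq2 test turned Cox6b1 -0.0012 and Atp5g3 -0.0063. With no filter the turned values were Cox6b1 -0.027, Cox6b2 -0.0122 and Atp5g3 -0.0422, with 1 CPM in 3 libraries Cox6b1 -0.0065 and Atp5g3 -0.0039, and with voom Uqcrc1 -0.0134, Cox6b2 -0.0845, Atp5g3 -0.0575, Uqcrb -0.17 and Uqcrq -0.10. With log2(FPKM + 1), with or without its filter, they were Cycs -0.47, Cox6b2 -0.19, Uqcrb -0.13 and Uqcrq -0.12, and with log2(FPKM + 0.1) Cycs -0.47, Cox6b2 -0.36, Uqcrb -0.14 and Uqcrq -0.14. With 1 library left out, Ndufv1 -0.35 to +0.36, Sdhb -0.32 to +0.13, Uqcrc1 -0.40 to +0.28, Cyc1 -0.49 to +0.59, Cycs -0.0604 to +0.11, Atp5a1 -0.18 to +0.0234, Cox6a1 -0.37 to +0.64, Cox6b1 -0.0574 to +0.0515, Cox6b2 -0.87 to +0.33, Cox7a1 -0.69 to +0.35, Cox7a2 -0.22 to +0.0243, Cox7a2l -0.19 to +0.0446, Cox8a -0.25 to +1.01, Ndufa4 -0.18 to +0.0384, Atp5g1 -0.36 to +1.13, Atp5g2 -0.0948 to +1.91, Atp5g3 -0.48 to +0.30, Ndufa11 -0.42 to +1.27, Ndufa2 -0.10 to +1.06, Atp5d -0.37 to +1.17, Uqcr11 -0.28 to +0.94, Sdhc -0.57 to +0.0215, Pprc1 -0.0073 to +0.61, Mdh2 -0.20 to +0.44, Cox14 -0.20 to +1.004, Uqcrb -0.36 to +0.46 and Uqcrq -0.80 to +0.51 crossed 0.

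With 3 libraries a group and KO replicate 1 apart from the rest, the SE of a member was 0.203 to 0.793 on the log2 scale. KO replicates 2 and 3 both held fewer than 10 counts for Atp5l, Cox6b2 and Cox7a1. The counts were 2, 8 and 2 in KO replicate 2 and 9, 5 and 7 in KO replicate 3, the shallowest library.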
